A study of Drosophila melanogaster with 12 samples.

Results

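The odorant-binding protein (Obp) genes were taken as every gene whose symbol begins with Obp followed by a digit and which a single-gene probe set of the array measures. This gave 47 of the 11982 genes tested, on 50 probe sets. Whole male larvae of the Canton-S strain were compared on 12 Affymetrix arrays, 3 biological replicates in each of 4 groups. All were reared at 25 °C on a semi-defined food, with 0.15 M sucrose in the control food and 1 M sucrose in the high sugar food. The groups were mid-L3 larvae on control food and on high sugar food, and wandering larvae on control food and on high sugar food. Mid-L3 larvae were feeding larvae in the middle of the last instar. Both mid-L3 groups were raised on control food and moved as early L3 larvae to fresh food of either kind for 12 h. Wandering larvae, which had left the food but not yet formed a puparium, had eaten their diet since hatching. The wandering and mid-L3 diet comparisons therefore differ in the length of feeding as well as in stage.

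Odorant-binding proteins are small secreted proteins that carry hydrophobic molecules. In the sensilla of insect antennae and mouthparts they are made by support cells and released into the lymph around the sensory neurons, where some of them bring odorants or pheromones to receptors. Many are also made outside sense organs, in glia, fat tissue, gut or the male reproductive tract, where their ligands are mostly unknown. Subfamilies are told apart by conserved cysteines, the minus-C members lacking some of those found in classic members and the plus-C members carrying more. The RefSeq gene table for the fly's Release 6 assembly lists 51 genes of this name. Obp50b, Obp50c, Obp57d and Obp83a are not analysed here, since no single-gene probe set was assigned to them.

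Few members gave a clear signal in whole larvae. An intensity of at least 100 on all 3 arrays of at least 1 group was taken as clear expression, and 15 members (31.9%) reached it, against 68.5% of all genes tested. Obp99b, Obp56d, Obp99c, Obp44a, Obp56a, Obp99a, Obp49a and Obp28a reached it in all 4 groups. Obp83g, Obp83cd and Obp56e reached it in mid-L3 larvae on both foods and Obp83ef in wandering larvae on both foods. Obp56h reached it in larvae of both stages on control food, Obp18a in wandering larvae on control food and Obp93a in mid-L3 high sugar larvae. Just inside this limit lay Obp18a, with a lowest value of 103 in wandering larvae on control food, and Obp93a, with a lowest value of 103 in mid-L3 high sugar larvae. Just outside lay Obp56b, at 99.1 to 111 in mid-L3 control larvae, and Obp47a, at 90.9 to 143 there. By group the count was 12 in mid-L3 larvae on either food, 11 in wandering larvae on control food and 9 in wandering larvae on high sugar food. The limit does not prove expression: of 13 egg shell and yolk protein genes, which male larvae are not known to use, 3 also passed it, and Cp15 reached 550. The 27 members with the lowest group means lay between 1.16 and 66.5 on every array, and the other 20 are described array by array below. Intensities of different probe sets are not on a common scale of transcript number, so changes are read within each gene. Sums over marker lists, given further below, are carried by their brightest probe sets and do not measure amounts of tissue.

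**Figure D1:**
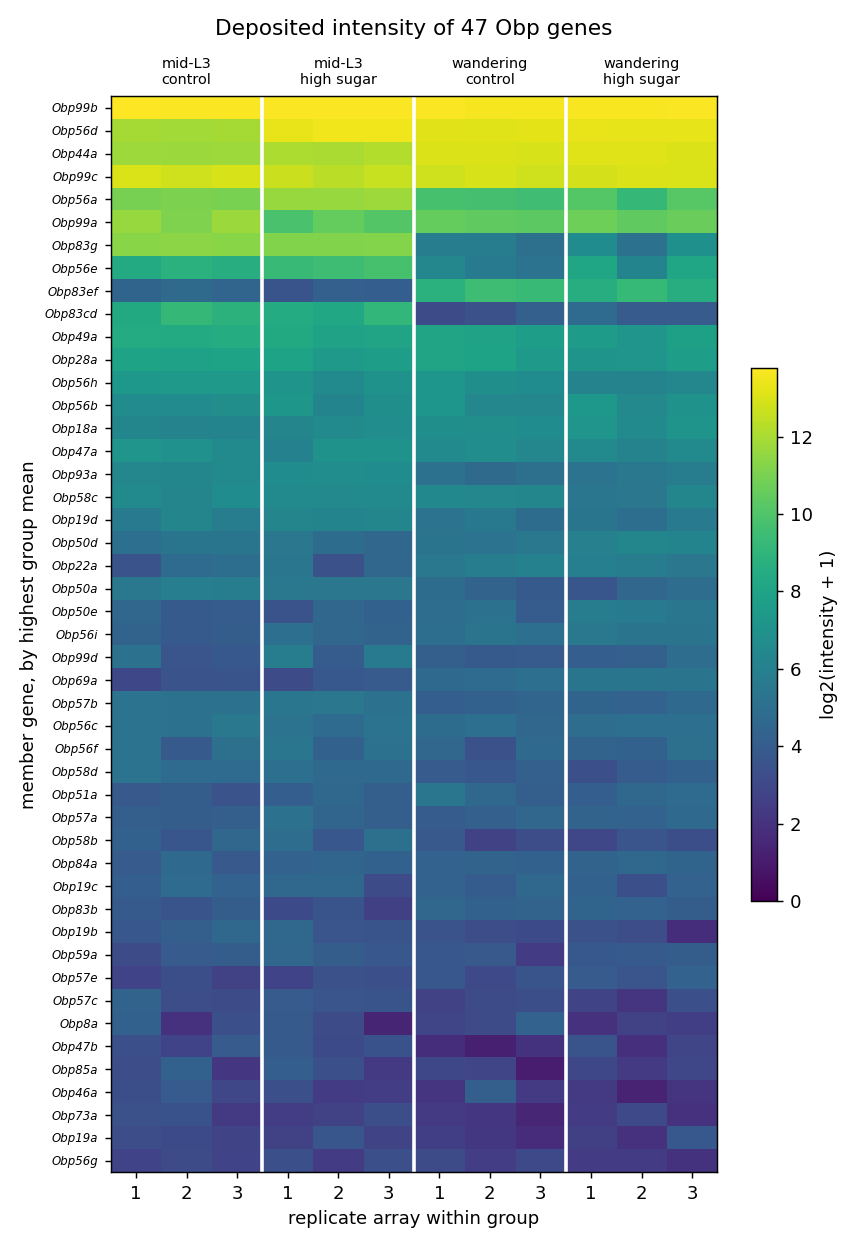
Deposited intensity of the 47 Obp genes (rows, ordered by highest group mean) on the 12 arrays (columns, 3 replicates per group), coloured by log2(intensity + 1). The colour stays bright across all arrays for Obp99b, switches between the stages for Obp83g, Obp83cd and Obp83ef, and is dark in every column for most of the lower 27 rows.

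Subfamilies were assigned from general knowledge of the family and are described without a test. Of the 6 minus-C genes measured, 4 were clearly expressed (Obp99a, Obp99b, Obp99c and Obp44a), and Obp8a and Obp99d stayed between 1.70 and 55.6. Of the 11 plus-C genes, 2 were clearly expressed (Obp49a and Obp93a), and the others stayed between 1.16 and 101. Among named clusters, none of the 4 measured Obp57 genes (3.36 to 42.7), 4 Obp19 genes (2.36 to 79.3), 3 Obp58 genes (5.49 to 101) or 3 Obp50 genes (10.6 to 80.7) passed the limit. In adult flies Obp57e takes part in the taste of octanoic acid, Obp19b in the taste of amino acids and Obp59a in the sensing of humidity. Obp57e and Obp19b reached at most 19.2 and 23.3 in these whole larvae, and Obp59a at most 28.8 over its probe sets. The antennal gene Obp83b reached at most 22.8, and Obp69a, linked to social responses of adults, at most 40.7. In bulk RNA of whole larvae, fewer cells of a type and less RNA per cell cannot be told apart.

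The first comparison asked how feeding mid-L3 larvae responded to 12 h of high sugar food. The test was passed by 4 members, against a background of 9.87% of all genes called (5.19% higher and 4.68% lower): Obp56d and Obp44a rose, and Obp99a and Obp99c fell. Changes are differences of quantile-normalised log2(intensity + 12.7) between group means, tested with limma and adjusted over all 11982 genes, with 0.05 as the threshold. The added constant makes the changes of dim genes look smaller than they are. Folds are ratios of the deposited means, a different measure from these log2 changes. The median change was 0.01 over the 47 members and 0.01 over all genes. At an uncorrected p under 0.05 there were 9 members. The share of all genes at that uncorrected threshold was not counted, so this number has no background beside it.

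Obp56d, which is expressed in chemosensory organs of the adult, had the largest diet change of any member on the log2(intensity + 12.7) scale. Its intensities were 3922, 3731 and 3909 in mid-L3 larvae on control food and 10084, 11290 and 11295 on high sugar food. They were 9275, 8987 and 9420.0 in wandering larvae on control food and 10300.4, 9883 and 9782 on high sugar food. Mid-L3 larvae on control food thus stood apart from the other arrays, all of which were higher. Those other arrays lay high in the intensity range, up to the 99.8th percentile of all genes. Whether differences among them were compressed there was not tested. In mid-L3 larvae the deposited mean rose 2.83-fold, the fitted log2 change was 1.59 (SE 0.06, limma adjusted p = 1e-08), and the groups did not overlap.

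Obp99a, a minus-C member, moved the other way. It read 3190.2, 2241 and 3365 in mid-L3 larvae on control food, and 901, 1450.3 and 1109.7 on high sugar food. Among wandering larvae it read 1498, 1354 and 1269 on control food and 1719, 1368 and 1578 on high sugar food. The 3 mid-L3 control arrays were the highest of the 12, and high sugar food brought the mean down 2.54-fold (log2 change -1.18, SE 0.15, limma adjusted p = 0.00025).

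Obp44a, a minus-C member known from glia of the larval nervous system, rose modestly. Its values were 3501, 3381 and 3496 in mid-L3 larvae on control food and 4420, 4264 and 4636 on high sugar food. Wandering larvae gave 8396, 8487 and 7898 on control food and 8803, 8872 and 8645 on high sugar food. The 4 groups lay in that order with no overlap between neighbours. In mid-L3 larvae the log2 change was 0.33 (SE 0.05, limma adjusted p = 0.0012), and the deposited mean rose 1.28-fold.

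Obp99c, also of the minus-C type, was 8133, 7122 and 7774 in mid-L3 larvae on control food and 6601, 5271 and 6253 on high sugar food. It was 6986, 7770.0 and 7007 in wandering larvae on control food and 7758, 8377 and 8282 on high sugar food. The mid-L3 groups did not overlap, and the mean fell 1.27-fold (log2 change -0.34, SE 0.08, limma adjusted p = 0.022). It no longer passed when mid-L3 control replicate 1 (adjusted p = 0.0849) or 3 (0.0778) or mid-L3 high sugar replicate 2 (0.0855) was left out, nor without the intensity trend in the variance (0.0733).

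Obp99b, which fat cells of the adult head express, sat near the top of the intensity range on every array. Its values were 14105, 13131 and 13369 in mid-L3 larvae on control food and 13199.8, 13394 and 13247 on high sugar food. Wandering larvae gave 13093, 12471 and 12589 on control food and 12839.9, 12673 and 13405 on high sugar food. The highest value of any probe set on any array was 15489, so this probe set had little room to show an increase. Its diet change in mid-L3 larvae was 0.00 (95% interval -0.11 to 0.11), and quantile normalisation sets equal ranks to equal values on all arrays.

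Of the Obp56 genes, Obp56a and Obp56e also lay higher on high sugar food on all 3 mid-L3 arrays, without passing the test. Obp56a read 1984, 2179 and 2079 in mid-L3 larvae on control food and 3252, 3244 and 3502 on high sugar food. The groups did not overlap, at a 1.60-fold difference of means, but the log2 change of 0.67 (SE 0.20) had a limma adjusted p of 0.0503. It passed in 5 alternatives, among them the values as deposited (0.0441) and the 6 compared arrays alone (8.25e-05). Obp56e read 339, 442 and 379 on control food and 619, 712 and 887 on high sugar food, again without overlap. Its log2 change was 0.89 (95% interval 0.12 to 1.66, limma adjusted p = 0.15), and with the compared arrays alone the adjusted p was 0.0021. The shared spread estimate for both genes includes the wandering high sugar arrays, of which replicate 2 stands apart for them as described below.

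**Figure D2:**
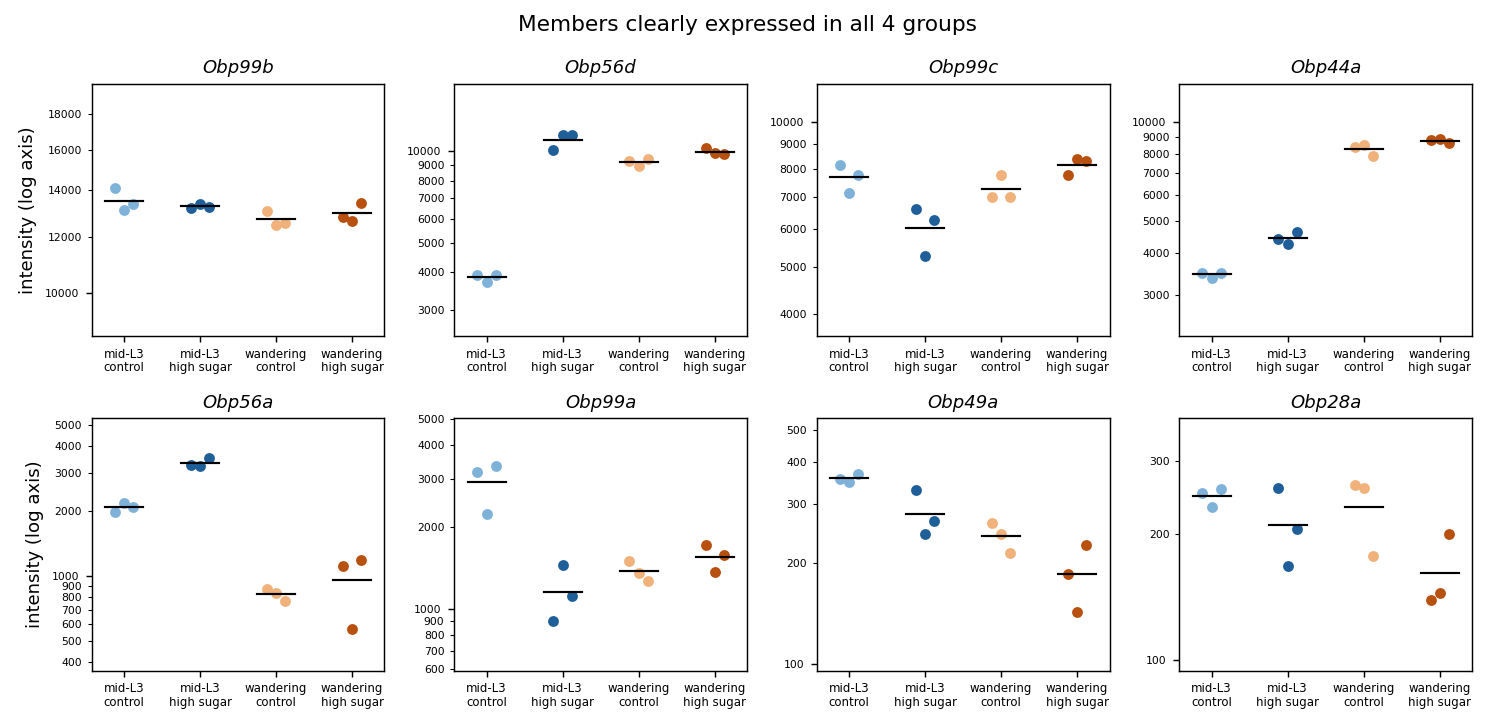
Deposited intensity (log axis) of the 8 members clearly expressed in all 4 groups; points are the 3 arrays of a group and bars their mean. Obp56d is low only in mid-L3 larvae on control food, Obp99a is high only there, Obp44a steps up across the 4 groups, and Obp99b lies between 12471 and 14105 on all arrays.

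Markers of some tissues differed between the mid-L3 diets as well. Of 5 fat body markers measured, Fbp2 (log2 change -1.04, limma adjusted p = 0.042) and Mtp (-0.67, 0.00072) fell and none rose. Their summed intensity was 32948 to 36645 on control food and 25950.3 to 32280.4 on high sugar food. Of 8 midgut markers, 4 rose and 1 fell, with sums of 34395 to 36248 and 47025 to 50781. Of 7 glial markers none passed, with sums of 3404 to 3433 and 3276 to 3664, and repo, the defining glial gene, averaged 114 and 117. Whether these changes in marker genes reflect amounts of tissue, and their part in the Obp results, was not tested. An intensity above 0 does not show that a tissue was present, since egg shell and yolk genes also gave signal.

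The second comparison asked what rearing on high sugar food since hatching changed in wandering larvae. The test was passed by 2 members, against 4.16% of all genes called (2.30% higher and 1.87% lower): Obp56e rose and Obp56h fell. The median change was 0.10 over the members and -0.01 over all genes. An uncorrected p under 0.05 was reached by 8 members, again with no background share counted. Both calls depended on single arrays.

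Obp56e read 81.2, 50.7 and 37.1 in wandering larvae on control food and 273, 73.2 and 274.0 on high sugar food. Replicate 2 on high sugar food lay within the control range and the other two lay above it, so the groups overlapped. The deposited mean rose 3.67-fold, and the fitted log2 change was 1.43 (SE 0.36, 95% interval 0.66 to 2.20, limma adjusted p = 0.042). It no longer passed in 8 of 18 alternatives, with an adjusted p of 0.149 for the 6 wandering arrays alone. Leaving out high sugar replicate 2 instead gave a log2 change of 1.98 (adjusted p = 7.98e-05).

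Obp56h, whose loss in adult males alters mating and cuticular hydrocarbons, read 149, 115 and 103 in wandering larvae on control food and 72.0, 69.5 and 81.8 on high sugar food. The groups did not overlap, and the mean fell 1.64-fold (log2 change -0.60, SE 0.15, limma adjusted p = 0.039). The call was lost whichever of the 6 wandering arrays was left out (adjusted p 0.0507 to 0.149) and with those arrays alone (0.0837). In mid-L3 larvae it read 159, 171 and 175 on control food and 139, 96.2 and 129 on high sugar food, also without overlap, with a log2 change of -0.41 (limma adjusted p = 0.11).

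Wandering high sugar replicate 2 was the low array for several members. Obp56a read 869, 839 and 765 in wandering larvae on control food and 1119.5, 571 and 1184 on high sugar food. Obp83g read 55.4, 56.1 and 33.5 on control food and 103, 35.8 and 121 on high sugar food. With all arrays the log2 changes were 0.17 (limma adjusted p = 0.73) and 0.53 (0.27). Without that array they were 0.51 (0.0012) and 0.91 (0.00127), and Obp83ef passed too, at -0.73 (0.0339). For Obp83ef that array was instead the highest of its group, at 608 against 387 and 378. The wandering count then stood at 4 members instead of 2. The share of all genes called without that array was not counted, so this count has no background beside it.

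The members with the highest intensities did not pass in wandering larvae. Obp56d differed by a log2 change of 0.11 (95% interval -0.03 to 0.25), Obp44a by 0.10 (-0.01 to 0.22), Obp99c by 0.16 (-0.02 to 0.34), Obp99a by 0.24 (-0.09 to 0.58) and Obp99b by 0.04 (-0.07 to 0.15). Among dimmer ones, Obp50d read 39.0, 36.5 and 44.6 on control food and 64.1, 80.7 and 74.8 on high sugar food without overlap. Its log2 change of 0.60 had a limma adjusted p of 0.079 and passed in 3 of 16 alternatives. Obp28a, an abundant antennal protein of adults, read 262, 258 and 177 on control food and 139, 145 and 200.4 on high sugar food (log2 change -0.54, limma adjusted p = 0.13). Obp49a, which in adult taste hairs lets bitter compounds suppress the response to sugar, read 263, 243 and 214 on control food and 186, 143 and 227 on high sugar food. Both groups of Obp28a and of Obp49a overlapped, and the log2 change of Obp49a was -0.42 (limma adjusted p = 0.16).

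**Figure D3:**
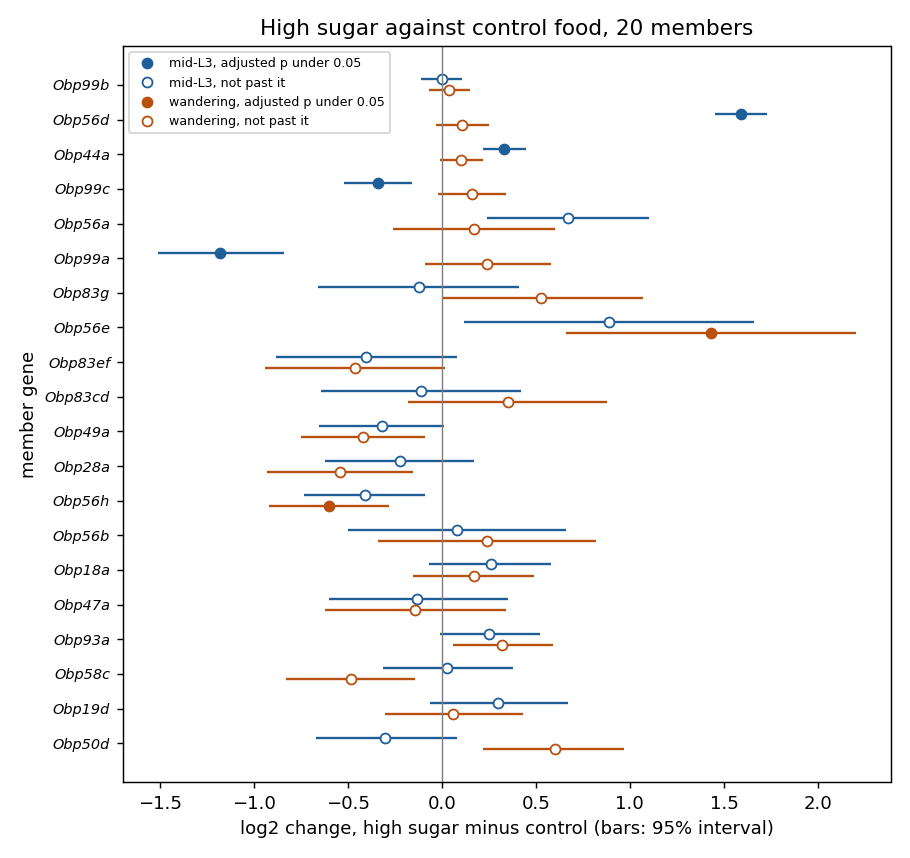
Log2 change with high sugar food (high sugar minus control) for the 20 members with the highest group means, in mid-L3 larvae (blue) and wandering larvae (orange); bars are 95% intervals and filled points have an adjusted p under 0.05. Obp56d stands at 1.59 in mid-L3 and 0.11 in wandering larvae, and Obp99a at -1.18 and 0.24.

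Whether the diet effect differed between the stages was tested directly as an interaction, the wandering diet effect minus the mid-L3 diet effect. A difference passed for 3 members, against 5.30% of all genes called (2.65% higher and 2.65% lower). For Obp56d the difference was -1.48 on the log2 scale (SE 0.09, limma adjusted p = 1e-06), from effects of 0.11 and 1.59. Its wandering arrays on both foods lay high in the intensity range, as given above. For Obp99a it was 1.42 (SE 0.22, adjusted p = 0.0016), from 0.24 and -1.18. For Obp99c it was 0.50 (SE 0.12, adjusted p = 0.029), from 0.16 and -0.34, and this call was lost in 7 of 23 alternatives. The Obp50d difference of 0.89 did not pass (limma adjusted p = 0.055), nor did that of Obp44a at -0.23 (95% interval -0.39 to -0.07, adjusted p = 0.11). Obp56e and Obp56h, the members called in wandering larvae, had differences of 0.54 (95% interval -0.55 to 1.63) and -0.19 (-0.65 to 0.26), with adjusted p of 0.64 and 0.69. The median difference was -0.01 over members and -0.01 over all genes. An uncorrected p under 0.05 was reached by 6 members, with no background share counted.

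The comparison of stages gave the largest changes in the family. On control food 25 of 47 members passed, 9 higher and 16 lower in wandering larvae, against 70.0% of all genes called (35.6% higher and 34.3% lower). On high sugar food 26 passed, 11 higher and 15 lower, against 69.5% (34.7% higher and 34.8% lower). The median change was -0.25 over members and 0.00 over all genes on control food, and -0.18 and -0.02 on high sugar food. The share of members called was below the background share on both foods, and the split depended on the scaling. Members were clearly expressed less often than all genes, and no background of genes of like intensity was counted. With arrays centred on their medians 6 were higher and 25 lower on control food, and 5 higher and 24 lower on high sugar food. That scaling moved the median of all genes to -0.22 and -0.20. Of all genes it called 30.5% higher and 43.1% lower on control food, and 30.4% and 42.1% on high sugar food. With the values as deposited it was 8 higher and 14 lower, and 12 higher and 14 lower, at an overall median of 0.08 on both foods. All genes then gave 39.6% higher and 30% lower on control food, and 39.2% and 29.4% on high sugar food. The 2 stage comparisons use different arrays.

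Obp83g, Obp83cd and Obp83ef, which RefSeq places side by side, changed the most and not all in 1 direction. Obp83g read 2576, 2662 and 2584 in mid-L3 larvae on control food and 2338, 2268 and 2415 on high sugar food, against the values of 33.5 to 121 in wandering larvae given above. It fell by 5.41 on the log2 scale on control food (SE 0.25, limma adjusted p = 3.9e-10), 54-fold by the deposited means, and by 4.76 on high sugar food (adjusted p = 1.4e-09), 27.1-fold.

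Obp83cd read 326, 573 and 459.8 in mid-L3 larvae on control food and 357, 312 and 556 on high sugar food. Among wandering larvae it read 7.96, 9.61 and 17.9 on control food and 27.7, 14.5 and 14.5 on high sugar food. No mid-L3 array came near any wandering array, and the log2 changes were -4.27 (SE 0.25, limma adjusted p = 3.1e-09) and -3.81 (adjusted p = 9.8e-09).

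Obp83ef, between them on the chromosome, rose where they fell. It read 20.8, 26.5 and 21.6 in mid-L3 larvae on control food and 10.9, 18.0 and 16.1 on high sugar food. Wandering larvae gave 447, 729 and 646 on control food and 387, 608 and 378 on high sugar food. The log2 changes were 4.05 (SE 0.22, limma adjusted p = 2.2e-09), a 26.5-fold ratio of means, and 3.99 (adjusted p = 2.6e-09), a 30.6-fold ratio. The low groups of these 3 genes lay at intensities that egg shell genes also showed, so the folds include the array's background signal.

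The Obp56a to Obp56f run of 6 adjacent genes was mixed as well. Obp56a fell in wandering larvae by 1.31 on control food (limma adjusted p = 4.8e-05) and by 1.82 on high sugar food (2.1e-06) on the log2 scale. Obp56e fell by 2.75 (1.1e-05) and by 2.21 (8.7e-05). Obp56d rose by 1.48 on control food (SE 0.06, adjusted p = 2.4e-10) and showed a change of 0.00 on high sugar food (95% interval -0.14 to 0.14). Obp56b, at 99.4, 99.1 and 111 in mid-L3 larvae on control food, 158, 72.5 and 114 on high sugar food, 150, 82.0 and 83.2 in wandering larvae on control food and 164, 89.5 and 130 on high sugar food, overlapped throughout and passed nowhere. Obp56c passed on control food alone (-0.41, adjusted p = 0.024, group means 39.0 and 27.3), and Obp56f, at 9.50 to 42.0, passed in no comparison. In the pair Obp56g and Obp56h, Obp56h fell by 0.73 (0.00061) and by 0.92 (8.6e-05), while Obp56g, known from the seminal fluid of adult males, lay between 2.99 and 9.47.

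**Figure D4:**
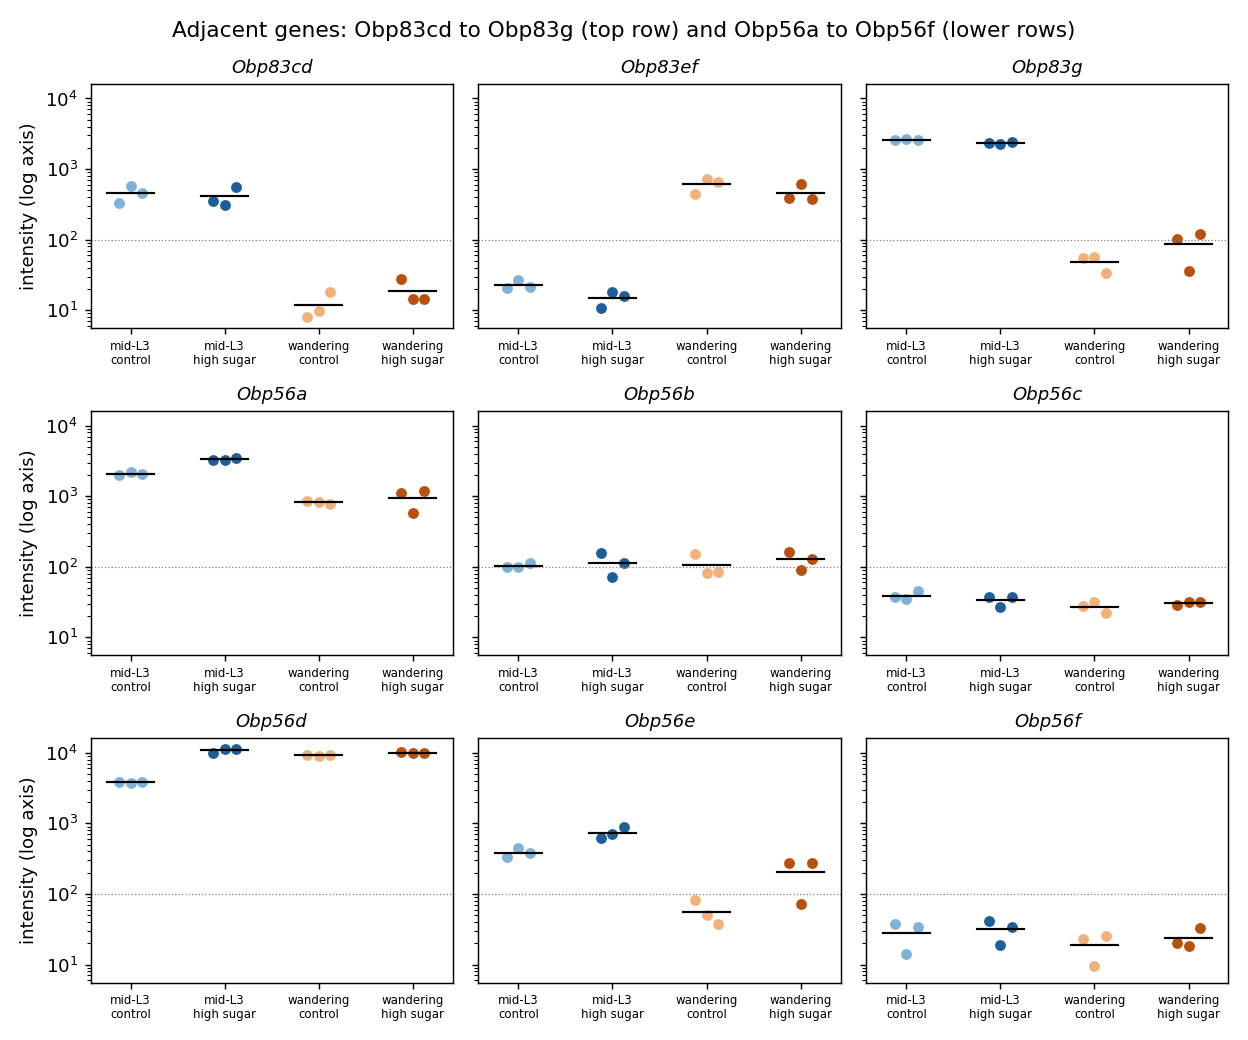
Deposited intensity (log axis) of 2 runs of adjacent genes; points are the 3 arrays of each group, bars their mean, and the dotted line is an intensity of 100. In the top row Obp83cd and Obp83g lie above the line in mid-L3 larvae and Obp83ef in wandering larvae; in the lower rows Obp56a and Obp56e fall between the stages, while Obp56d is lowest in mid-L3 larvae on control food.

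Members of the family are often neighbours in the genome. By the RefSeq gene order 26 of the 47 lie directly beside another gene of this name, in 9 runs, and 21 do not. Of the 15 clearly expressed members 7 lie in such runs. The longest run is Obp56a to Obp56f.

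Of the minus-C members, Obp44a rose with stage on both foods, by 1.47 (SE 0.05, limma adjusted p = 5.6e-11) and 1.24 (2.6e-10) on the log2 scale. Its deposited means rose 2.39-fold and 1.98-fold. Of the 7 glial markers 2 rose with stage and 2 fell on either food, Gs2 from 2276 to 3678 and repo from 114 to 88.8 on control food. Glial sums were 3276 to 3664 in mid-L3 larvae and 4386 to 5658 in wandering larvae, and their part in the Obp44a result was not tested. Obp99a fell on control food (-0.97, adjusted p = 7.6e-05) and rose on high sugar food (0.45, adjusted p = 0.019), which reflects the same 4 group means as the interaction above. The second of these was lost with arrays centred on their medians (0.17, adjusted p = 0.382), without wandering high sugar replicate 1 (0.0838) and without mid-L3 high sugar replicate 1 (0.0972), and the groups overlapped. Obp99c passed on control food at 0.21 (adjusted p = 0.038), but its deposited means were 7676 in mid-L3 and 7254 in wandering larvae. Its direction turned to -0.08 with values as deposited and to -0.38 (adjusted p = 0.00125) with arrays centred on their medians, so no direction holds. On high sugar food Obp99c rose by 0.71 (adjusted p = 4.8e-06), a call lost with median centring (0.15, 0.122). Obp99b gave 0.00 and 0.04 on the 2 foods, and -0.39 and -0.32 with median centring.

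Several dimmer members were lower in wandering larvae on both foods. Obp49a read 356, 349 and 368 in mid-L3 larvae on control food and 329.6, 245 and 266 on high sugar food, and fell by 0.81 (limma adjusted p = 0.00033) and 0.91 (0.00012). Obp93a, a plus-C gene, read 82.7, 78.8 and 95.4 in mid-L3 larvae on control food and 103, 107 and 103 on high sugar food. Among wandering larvae Obp93a read 34.5, 26.5 and 32.7 on control food and 36.5, 44.4 and 55.4 on high sugar food, with changes of -1.32 (limma adjusted p = 4.1e-07) and -1.25 (7.5e-07). None of the mid-L3 arrays overlapped a wandering array for Obp93a.

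Obp19d read 50.02, 75.5 and 54.6 in mid-L3 larvae on control food and 77.1, 73.3 and 79.3 on high sugar food. Among wandering larvae it read 37.1, 46.4 and 28.3 and 40.0, 31.0 and 49.7, and it fell by 0.70 (limma adjusted p = 0.0021) and 0.95 (2e-04). Obp58c read 95.3, 75.0 and 101 in mid-L3 larvae on control food and 96.6, 89.2 and 91.9 on high sugar food. It read 86.0, 82.6 and 80.0 in wandering larvae on control food and 41.9, 42.8 and 80.5 on high sugar food. Its fall of 0.92 on high sugar food (limma adjusted p = 0.00016) held in every alternative, and that of 0.41 on control food (0.038, overlapping groups) was lost in 7 of 17.

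Obp47a read 143, 123 and 90.9 in mid-L3 larvae on control food and 66.8, 135 and 134 on high sugar food. It read 95.2, 106 and 82.7 and then 91.7, 72.1 and 91.0 in wandering larvae. The groups overlapped, and its falls of 0.59 (limma adjusted p = 0.029) and 0.60 (0.027) were lost in 5 and 4 of 17 alternatives, with the values as deposited among both. Obp28a read 252, 233 and 257 in mid-L3 larvae on control food and 257, 168 and 206 on high sugar food. It passed on high sugar food (-0.69, limma adjusted p = 0.004), though not with the values as deposited (-0.36, 0.0934), and not on control food (-0.37, 0.082).

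The remaining members of the 20 were Obp50d, which passed on high sugar food alone, and Obp18a, which passed on neither food. Obp50d, at 31.5, 40.6 and 40.3 in mid-L3 larvae on control food and 42.9, 28.1 and 22.8 on high sugar food, rose on high sugar food (0.88, limma adjusted p = 0.00046) and gave -0.01 on control food. Obp18a read 79.9, 69.6 and 72.5 in mid-L3 larvae on control food and 76.0, 94.0 and 108 on high sugar food. Among wandering larvae Obp18a read 116, 109 and 103 and 143, 96.7 and 141, with changes of 0.16 and 0.08 that did not pass (limma adjusted p = 0.35 and 0.67). With values as deposited both passed, at 0.49 (0.0108) and 0.40 (0.033).

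Among the 27 dimmest members 10 passed by stage on control food and 10 on high sugar food, 13 genes in all. This is a smaller share than the 70.0% and 69.5% of all genes called, but the share among other genes as dim was not counted. None of the 27 passed in a diet comparison. On control food Obp22a, Obp51a, Obp56i, Obp69a and Obp83b were higher in wandering larvae and Obp47b, Obp50a, Obp56c, Obp57b and Obp58d lower. On high sugar food Obp22a, Obp50e, Obp56i, Obp57e, Obp69a and Obp83b were higher and Obp50a, Obp57b, Obp58b and Obp58d lower. Obp22a, Obp51a and Obp56i are known from adult male seminal fluid. On control food the call was lost in 4 of 16 alternatives for Obp83b, 3 for Obp56c, 2 each for Obp22a and Obp47b and 1 for Obp51a. On high sugar food it was lost in 4 of 16 for Obp22a, 3 each for Obp57e and Obp58b, 2 for Obp58d and 1 each for Obp56i and Obp83b. Values as deposited or median centring ended several of these calls, among them Obp83b on control food under both. The calls of Obp50a, Obp57b and Obp69a held on both foods in all 16 alternatives that tested them. Obp69a went from a mean of 9.37 to 28.2 on control food (log2 change 0.96, limma adjusted p = 4.1e-05) and from 11.9 to 39.8 on high sugar food (1.11, 1.1e-05), intensities that egg shell genes also showed. Obp50a went from a mean of 53.0 to 20.8 (log2 change -1.07, limma adjusted p = 0.00023) and from 43.9 to 21.3 (-0.78, 0.0027).

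Genes in lists unrelated to smell, dim and bright, also moved with stage. Of the 13 egg shell and yolk genes, 7 were lower in wandering larvae and none higher on either food, with median changes of -0.49 and -0.52. Their summed intensity was 766 to 1068 in mid-L3 larvae and 241 to 340 in wandering larvae. Body wall muscle markers fell too, 5 of 5 measured, from sums of 29024 to 30187 in mid-L3 larvae to 3351 to 6992 in wandering larvae. Of 8 salivary gland markers 6 were higher and 2 lower in wandering larvae on either food. Among them ng1 fell from a mean of 2898 to 17.7 on control food, while Sgs3 rose from 19.4 to 11394. Sums of the list were 4686 to 11657 in mid-L3 larvae and 53110.1 to 55174 in wandering larvae. Sums of testis markers went from 783 to 1066 up to 4433 to 5914, and 6 of 8 were higher and 1 lower on each food. Mst87F, with a mean of 337 in mid-L3 and 3193 in wandering larvae on control food, carried most of that sum. The part of these shifts in the stage calls of dim Obp genes was not tested.

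The 3 members with another single-gene probe set, Obp19a, Obp19c and Obp59a, were dim on both. For Obp59a they disagreed: the dimmer probe set, at 1.18 to 28.8, fell with stage by 0.82 on control food (limma adjusted p = 0.00316) and 0.98 on high sugar food (0.000877). The brighter one, at 4.24 to 22.8, gave -0.08 and -0.02.

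**Figure D5:**
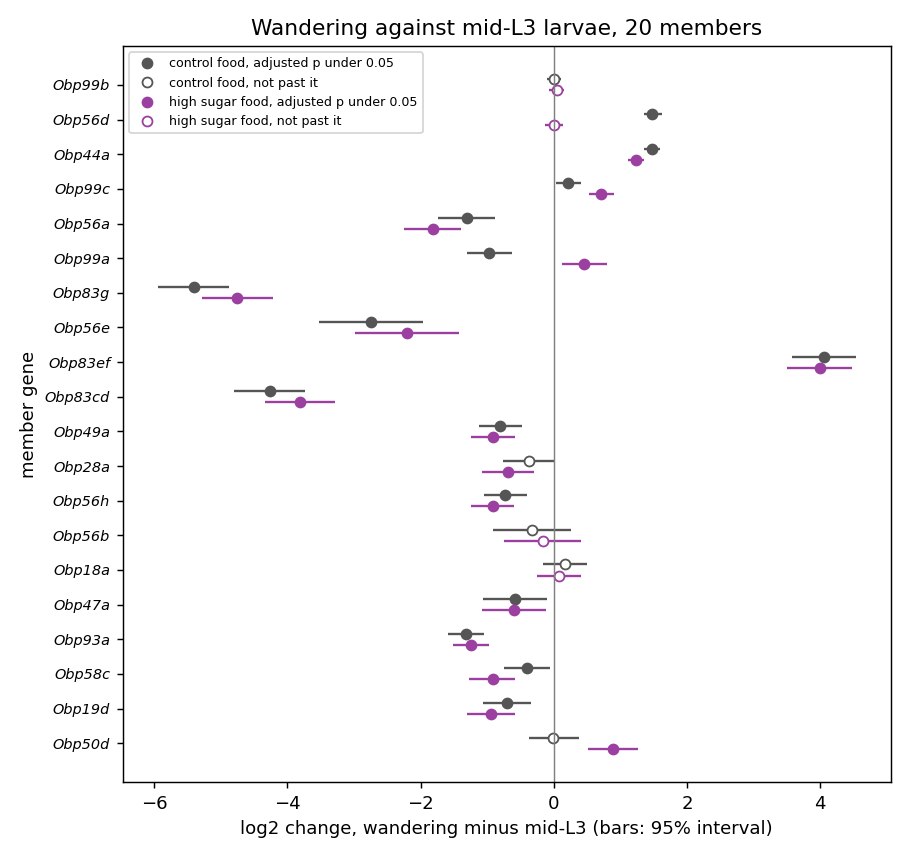
Log2 change between stages (wandering minus mid-L3) on control food (grey) and high sugar food (purple) for the 20 members with the highest group means; bars are 95% intervals and filled points have an adjusted p under 0.05. Obp83g (-5.41 and -4.76), Obp83cd and Obp83ef (4.05 and 3.99) lie far from zero on both foods, and Obp56d and Obp99a differ between the foods.

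Receptors that work beside Obps in sensilla were at low intensity. None of 57 odorant receptor genes (Or genes and their co-receptor Orco) was clearly expressed, and 54 stayed below 100 on every array. Of 53 ionotropic receptor genes 1 was clearly expressed, and of 56 gustatory receptor genes none. Or genes passed in no diet comparison, and 5 were higher and 15 lower in wandering larvae on control food, 6 and 13 on high sugar food. The ionotropic receptor Ir76a, chosen for having the highest mean of its list, averaged 73.5 and 121 in mid-L3 larvae on control and high sugar food, and 138 and 69.0 in wandering larvae. It rose with sugar in mid-L3 larvae (log2 change 0.63, limma adjusted p = 0.018) and fell in wandering larvae (-0.85, 0.0055), and the difference of -1.48 passed (0.001). Of 8 genes of sensory organ formation or support, nompA, which links sensory dendrites to the cuticle, was the 1 clearly expressed, and it rose with stage by 2.21 (limma adjusted p = 1.1e-05) and 1.51 (0.00037).

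Genes on a list of further soluble carriers of small lipophilic molecules were clearly expressed more broadly, 11 of 13 measured, than the 15 of 47 Obp genes. The list includes lush, an odorant-binding protein whose symbol keeps it out of the 47 members. The difference between the list and the members was not tested. Npc2e, Npc2g, Npc2a and Phk-3 had the highest means of that list. On high sugar food in mid-L3 larvae 1 of the 13 rose (Npc2a, 0.32, limma adjusted p = 0.027) and 1 fell, and in wandering larvae 1 fell. With stage 4 were higher and 5 lower on control food, and 3 and 4 on high sugar food.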

How the data were processed

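The 12 arrays gave 1 intensity per probe set on a linear scale, as deposited by the authors, and for the summarizing software and its normalization the sources used here name none. Per the labels, RNA was cleaned after DNase treatment and 2 ug of each total RNA was labelled with biotin. Of 18952 probe sets 183 controls were left out. The platform table named 1 gene for 13647 probe sets and several for 402, and 4720 were unlisted. Symbols were updated by Entrez identifier for 13544, and 103 kept the table's name; no Obp symbol changed. The brightest probe set stood for each of the 1094 genes measured more than once. Values became log2(intensity + 12.7), the 20th percentile of all values, and were quantile normalised. A mean per group was fitted with limma 3.58.1 in R 4.3.3 to all 12 arrays (residual df 8, eBayes with intensity trend), with Benjamini-Hochberg adjustment over all 11982 genes and no filter on dim genes. The fit was tested on simulated data. Medians per array were 63.2 to 83.8. P-values rest on a spread per gene that is pooled over the replicates of all groups and moderated across genes. With 3 arrays per group their precision is limited. The 20 members with the highest group mean were described array by array. Plots used Python 3.11.15 and matplotlib 3.10.9. The members, lists, tests and alternatives were chosen with earlier results of these data known. Alternatives were other scalings, added constants, filters on dim genes, treatments of several probe sets, variance models and arrays in the fit, other intensity limits, and the replicate number as a block. Gene order was read from RefSeq, and no coordinates are given, since the deposited files name no build to set beside RefSeq's. Probe sets listed for 2 genes, 4 of which include an Obp gene, were not used.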

Additional observations from a re-analysis of the deposited data

Results flagged for a closer look

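The diet effect differed between the stages for 3 members by the interaction test, given as the wandering effect minus the mid-L3 effect on the log2 scale. Obp56d had a difference of -1.48 (limma adjusted p = 1e-06). Its mid-L3 control arrays, at 3731 to 3922, lay below the other groups, all of whose arrays were above them. Those groups lay high in the intensity range, and the part of this in the difference was not tested. Obp99a had a difference of 1.42 (limma adjusted p = 0.0016), with mid-L3 control arrays above all others at 2241 to 3365. Obp99c had a difference of 0.50 (limma adjusted p = 0.029), which lost its call in 7 of 23 alternatives. Wandering larvae had eaten high sugar food since hatching and mid-L3 larvae for 12 h, so stage and length of feeding cannot be told apart in these differences.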

How the results depend on the processing

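In wandering larvae the count of 2 members called by diet became 1 with genes under the 50th percentile left out, 1 without the intensity trend, 1 with a robust variance prior, 0 with the 6 compared arrays alone and 0 with the replicate number as a block. Limma gave 8 members at an uncorrected p under 0.05 there, with no share of all genes counted. Leaving out 1 array gave 0 to 4 members, the 4 without wandering high sugar replicate 2. For the difference of the diet effects, leaving out 1 array gave 2 to 5 members, the 5 without that same array. For the mid-L3 diet the range was 3 to 4, for stage on control food 21 to 23 and for stage on high sugar food 22 to 25. Leaving out genes under the 30th percentile left 17 members to test, of which 13 were called by stage on either food. Under the 50th percentile 12 members were tested and 10 called on either food. The share of all genes called was not counted under these filters, with an array left out or under the other alternatives above in this paragraph. The counts under them thus have no background beside them. Signs turned as follows. For stage on control food Obp99c gave -0.081 as deposited (limma adjusted p = 0.434) and -0.38 with median centring (0.00125), and Obp99b -0.39 with median centring (1.72e-05). For stage on high sugar food median centring gave -0.40 for Obp56d (7.33e-05) and -0.32 for Obp99b (0.000128). Median centring moved the median of all genes by more than 0.1, as given above.

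Of 60 calls over members and comparisons, 38 held in all alternatives run. Over 4140 values of a gene under an alternative, 5 turned the sign of a value called in either setting, 79 lost and 49 gained a call, and 176 changed sign with no call in either. Clear expression held for 20 members at a limit of 50, 12 at 200, 17 by the mean of the 3 arrays and 17 after quantile normalisation. The share of all genes under these other limits was not counted. The replicate numbers were not taken to pair the arrays, since the labels tie them to no shared batch. Deviations from group means were correlated between arrays of different groups. Between the control groups same-numbered correlations were 0.095 to 0.134, against -0.124 to 0.040 for other numbers, a hint from the data that those numbers share something. A pairing is thus not excluded. Between the wandering groups they were -0.179 to 0.183, against -0.184 to 0.282. With the replicate block the counts were 0, 4, 3, 25 and 26 in the order of the comparisons wandering diet, mid-L3 diet, difference, stage on control food and stage on high sugar food. The share of all genes called with the block was not counted. Members near the array's background have little precision.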

Other observations

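Probe sets that the platform table assigns to 2 genes at once cover genes of this family that no single-gene probe set measures. One of those listed for Obp57d and Cpr57A ranged over the 12 arrays from 1879 to 3920.4, and the other from 27.4 to 120.3. Those listed for Obp50b and Obp50c ranged from 50.4 to 83.3 and from 142 to 543. Which gene of each pair gives the signal is not known from the table. The odorant receptor gene Or46a read 791 on mid-L3 control replicate 1 and 6.92 to 33.9 on the other 11 arrays.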
